A study of Mus musculus with 6 samples.

Results

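Transcripts of 10 genes of the HoxA and HoxB clusters were followed in mouse hematopoietic stem cells (HSCs) after long-term ferulic acid supplementation. The genes were Hoxa3, Hoxa5, Hoxa7, Hoxa9 and Hoxa10 on chromosome 6 and Hoxb2, Hoxb3, Hoxb4, Hoxb5 and Hoxb6 on chromosome 11, chosen by gene name from the 27198 genes of the deposited table. HSCs came from bone marrow of wild-type male C57BL/6 mice aged 8 to 10 weeks, and were sorted as cells negative for lineage markers, CD34 and Flk2 (CD135) and positive for Sca1 and c-Kit. The l-FA group received ferulic acid (FA), a plant phenolic acid, by intraperitoneal injection at 50 mg/kg daily for 30 days, and the Ctrl group received the solvent. Each group held 3 RNA-seq libraries made by amplifying cDNA from the sorted cells. The sources used here state neither how many mice made up a library nor that the libraries came from separate mice, so the p-values below measure only the spread between these libraries, which may be technical.

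Hox genes encode homeodomain transcription factors and lie in clusters in a conserved order, numbered by paralog group from the 3′ end (low numbers) to the 5′ end (high numbers). In blood, HoxA and HoxB genes are transcribed in stem and early progenitor cells and are turned down as cells mature. Their proteins bind DNA together with TALE homeodomain partners (PBX and MEIS proteins), while MLL complexes keep the loci active and Polycomb complexes repress them.

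In l-FA HSCs, transcripts of Hoxa7, Hoxa9 and Hoxa10, which lie side by side at the 5′ part of the HoxA genes measured, were higher than in Ctrl HSCs, by 1.14-fold, 1.20-fold and 1.43-fold, and Hoxb3 was 2.41-fold higher. These 4 genes passed an adjusted p of 0.05 by edgeR's quasi-likelihood test with Benjamini-Hochberg adjustment, among 9 members tested, and 0 members passed it in the lower direction. The Hoxa7 call was lost in 6 of 13 other settings. Across all 16520 genes tested, 50.5% passed (25.5% higher and 25.0% lower). Hoxb3 was the 1 member that also changed more than 2-fold, as did 11.8% of all genes tested (6.68% higher and 5.10% lower). By cluster, 3 of 5 HoxA genes and 1 of 4 tested HoxB genes passed. The median log2 fold change was 0.20 over the 9 members (0.26 for HoxA, 0.12 for HoxB) and 0.0035 over all genes tested. In bulk RNA, a change in the number of cells that hold a transcript and a change in the amount per cell cannot be told apart.

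The libraries held between 19287735 and 20380610 counts. Of 12 HSC marker genes, 8 were higher and 1 was lower in l-FA libraries, beside 25.5% higher and 25.0% lower among all genes tested. Their summed level ran from 1782 to 1895 CPM in Ctrl and from 2068 to 2097 CPM in l-FA libraries. CPM are counts brought to a common library size with TMM factors. Of 10 neutrophil and monocyte genes, 9 were lower by more than 2-fold, beside 5.10% of all genes tested, and 1 was higher. They had a sum of 22834 to 23766 CPM in Ctrl and 5745 to 6063 CPM in l-FA libraries. No gene of the list was at 0. The summed levels of the other marker lists also differed, with T and NK genes at 546 to 568 CPM against 302 to 313 CPM, erythroid genes at 144 to 151 CPM against 92.3 to 93.2 CPM, megakaryocyte genes at 210 to 220 CPM against 297 to 304 CPM, B cell genes at 56.5 to 57.5 CPM against 64.7 to 67.2 CPM, and stromal and endothelial genes at 125 to 130 CPM against 160.1 to 166 CPM. The erythroid genes went in both directions, with 2 of 8 tested called higher and 2 lower. Calls in the higher direction were 3 of 6 tested megakaryocyte genes, 1 of 4 B cell genes and 2 of 4 stromal and endothelial genes. These 3 lists had 0 genes called lower. The 2 tested T and NK genes were called lower. Kit and Ly6a, which encode the antigens c-Kit and Sca1 used to select the cells, were present in all 6 libraries and higher in l-FA. Kit stood at 1046 to 1082 CPM in Ctrl and at 1146 to 1166 CPM in l-FA (log2 fold change 0.12, edgeR adjusted p = 0.00238). It is 1 of the 12 HSC marker genes and made up the larger part of their sum. Ly6a stood at 32.7 to 53.2 CPM in Ctrl and at 75.1 to 78.5 CPM in l-FA (log2 fold change 0.77, edgeR adjusted p = 0.00887). Cd34 (1325 to 1361 CPM in Ctrl, 1541 to 1617 CPM in l-FA) and Flt3 (756 to 763 CPM in Ctrl, 1160.4 to 1196 CPM in l-FA), which encode the antigens the sort selected against, were present as transcripts as well. These markers moved with the groups, and their part in the Hox differences was not tested.

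The sequence upstream of the HoxA starts is shown because 3 of the 4 members called higher, Hoxa7, Hoxa9 and Hoxa10, lie there. Of the 10 members, 6 had an entry among the RefSeq promoter sequences of build GRCm38.p6, namely all 5 HoxA genes and Hoxb4, in 7 windows of 250 bases before a transcript start. The windows were searched on both strands for TGATTNAT (a joint PBX and HOX site), TGACAG (a MEIS site) and TTTATG (a CDX site), which do not overlap each other in the matches found, and capitals mark the matches in the 6 HoxA windows below.
Hoxa3, chr6:52213068-52213317, minus strand: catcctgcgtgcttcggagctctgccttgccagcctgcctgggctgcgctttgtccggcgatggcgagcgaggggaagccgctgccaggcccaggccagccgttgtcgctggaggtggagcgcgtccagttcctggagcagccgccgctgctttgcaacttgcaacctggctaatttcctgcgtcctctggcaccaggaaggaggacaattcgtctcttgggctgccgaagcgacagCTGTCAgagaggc
Hoxa5, chr6:52204588-52204837, minus strand: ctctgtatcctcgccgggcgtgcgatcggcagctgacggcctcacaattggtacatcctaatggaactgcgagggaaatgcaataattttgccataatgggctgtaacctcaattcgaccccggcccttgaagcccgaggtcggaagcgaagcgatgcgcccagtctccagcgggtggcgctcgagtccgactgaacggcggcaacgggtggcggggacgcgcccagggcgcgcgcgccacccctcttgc
Hoxa7, chr6:52218574-52218823, minus strand: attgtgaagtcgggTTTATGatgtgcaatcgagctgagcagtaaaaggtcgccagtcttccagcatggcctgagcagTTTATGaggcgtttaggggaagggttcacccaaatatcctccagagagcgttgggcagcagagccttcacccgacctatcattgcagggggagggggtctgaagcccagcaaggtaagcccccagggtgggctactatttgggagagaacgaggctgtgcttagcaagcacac
Hoxa9, chr6:52227371-52227620, minus strand: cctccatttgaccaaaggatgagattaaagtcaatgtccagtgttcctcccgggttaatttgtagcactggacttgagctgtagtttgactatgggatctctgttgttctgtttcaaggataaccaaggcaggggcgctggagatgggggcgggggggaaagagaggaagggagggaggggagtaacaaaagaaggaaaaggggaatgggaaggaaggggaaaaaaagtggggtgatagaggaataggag
Hoxa10 start 1, chr6:52240855-52241104, minus strand: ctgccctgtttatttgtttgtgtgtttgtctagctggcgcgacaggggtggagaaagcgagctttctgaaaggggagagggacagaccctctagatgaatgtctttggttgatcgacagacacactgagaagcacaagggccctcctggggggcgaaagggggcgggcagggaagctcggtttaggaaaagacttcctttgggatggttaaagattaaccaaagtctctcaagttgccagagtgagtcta
Hoxa10 start 2, chr6:52234940-52235189, minus strand: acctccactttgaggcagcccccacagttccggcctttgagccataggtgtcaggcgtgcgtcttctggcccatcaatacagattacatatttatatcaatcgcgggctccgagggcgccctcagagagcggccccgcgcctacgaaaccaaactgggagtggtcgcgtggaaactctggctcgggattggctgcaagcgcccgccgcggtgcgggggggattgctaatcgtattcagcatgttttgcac
TGACAG stood once before Hoxa3, on the opposite strand at 13 to 8 bases before the start, and occurred in 15.9% of 32851 windows of the same length. TTTATG stood at 2 places before Hoxa7, at 236 to 231 and at 173 to 168 bases before the start, and occurred in 10.8% of all windows. TGATTNAT occurred in 2.82% of all windows and in none of the 7 windows of the members. Hoxa5 held 28 CG dinucleotides and Hoxa3 held 18, while Hoxa9 held 3 and Hoxa7 held 7, beside a median of 6 over all windows. The Hoxa10 starts held 7 and 20, and the Hoxb4 window held 14. These matches describe the letters of the windows only.

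The members spanned a wide range of levels per length of transcript, given as FPKM (fragments scaled by transcript length and library size, as deposited). Hoxa9, whose loss impairs repopulation by HSCs, stood highest, at 13.0 ± 0.182 FPKM in Ctrl and 16.4 ± 0.239 FPKM in l-FA HSCs (SD, n = 3 each, as for all values below). Its mean level lay at percentile 86.4 of all listed genes. Hoxa7 followed at 7.72 ± 0.589 FPKM in Ctrl, then Hoxa5 at 4.01 ± 0.400 FPKM and Hoxa10 at 3.14 ± 0.135 FPKM, and the ranges of these 4 genes did not overlap among the Ctrl libraries. In l-FA libraries the ranges of Hoxa5 (5.11 ± 0.168 FPKM) and Hoxa10 (4.75 ± 0.193 FPKM) overlapped. Hoxb2, Hoxa3 and Hoxb5 stood at 0.874 ± 0.0548, 0.763 ± 0.104 and 0.734 ± 0.0540 FPKM in Ctrl, and each overlapped its neighbour in the order. Hoxb4 (0.302 ± 0.0470 FPKM), Hoxb3 (0.132 ± 0.0278 FPKM) and Hoxb6 (0.0874 ± 0.0249 FPKM) were the lowest in Ctrl, with Hoxb6 at percentile 17.3 of all listed genes. In l-FA libraries Hoxb3 (0.336 ± 0.0510 FPKM) overlapped Hoxb4 (0.367 ± 0.0691 FPKM) and lay above Hoxb6 (0.0153 ± 0.0156 FPKM). FPKM values follow the total of each library, whereas the CPM values and fold changes below carry TMM scaling factors. The deposited FPKM imply lengths of 4762 bases for Hoxb2 and 4681 bases for Hoxb5. Both are longer than the listed spans of these genes, 3488 and 2786 bases. For Hoxa7, Hoxa9 and Hoxa10 the FPKM imply 5552, 7323 and 6756 bases, against 2876, 5580 and 3270 exon bases in the GENCODE M21 annotation. Hoxa5 had 1877 bases in both. The order of Hoxa5 and Hoxa10 and the distances among the HoxA levels rest on the implied lengths and may not hold with others. The same is true of the order among Hoxb2, Hoxa3 and Hoxb5.

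**Figure D1:**
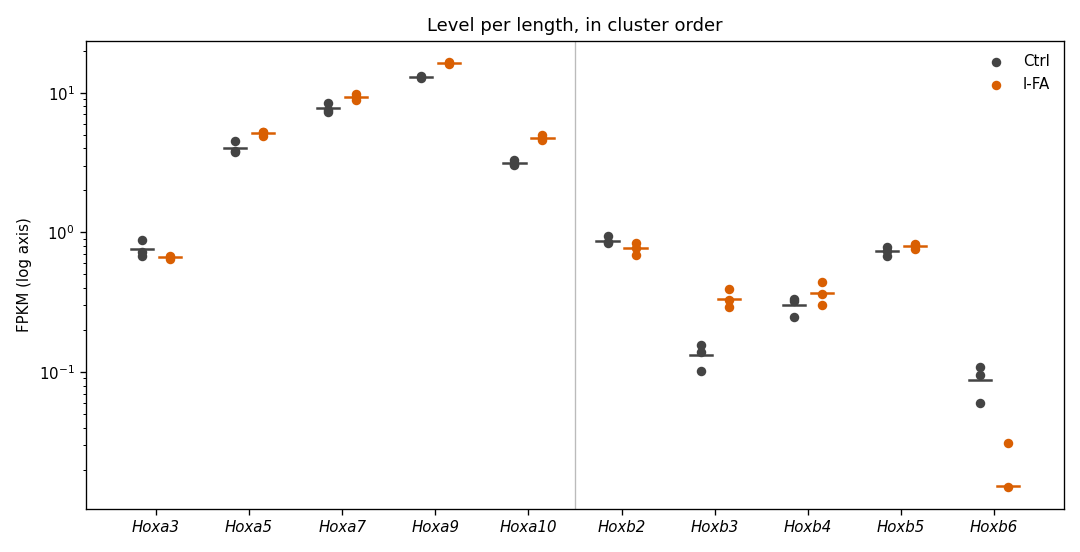
Deposited FPKM of the 10 members (log axis), HoxA genes before HoxB genes and each cluster ordered by paralog group. Each library is a point and each group mean a line, Ctrl beside l-FA. Hoxa9, Hoxa7, Hoxa5 and Hoxa10 lie above all HoxB genes, and l-FA library 3 of Hoxb6, listed at 0, cannot be drawn on this axis.

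Summed over the 5 members, HoxA stood at 27.8, 28.4 and 29.6 FPKM in Ctrl libraries 1 to 3 and at 36.0, 36.0 and 36.7 FPKM in l-FA libraries 1 to 3, a ratio of 1.27 between the means. HoxB stood at 2.18, 2.24 and 1.96 FPKM in Ctrl and at 2.21, 2.52 and 2.12 FPKM in l-FA libraries, a ratio of 1.07. The HoxA sums did not overlap between groups and the HoxB sums did. HoxA made up 92.7% to 93.8% of the summed FPKM of the members in Ctrl and 93.4% to 94.5% in l-FA libraries. Hoxa9 alone made up 43.8% to 46.3% of the HoxA sum in Ctrl and 44.8% to 45.7% in l-FA libraries, while Hoxb2 made up 38.9% to 42.5% of the HoxB sum in Ctrl and 31.2% to 36.6% in l-FA libraries. These shares rest on the implied lengths given above. In counts, which use no length, the Hoxa9 share was 54.2% to 56.2% in Ctrl and 54.6% to 55.7% in l-FA libraries. The Hoxb2 share in counts was 42.3% to 45.0% in Ctrl and 32.7% to 37.9% in l-FA libraries. In TMM-scaled CPM, the HoxA sum was 176 ± 3.25 in Ctrl and 212 ± 3.00 in l-FA, and the HoxB sum was 9.72 ± 0.637 and 10.1 ± 0.893.

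The HoxA members are described from the 5′ end of the cluster towards the 3′ end, with locations as listed in the deposited table (build GRCm39 per the submitters' processing notes). Together they spanned 71.8 kb of chromosome 6, from 52146042 to 52217834. Hoxa10 (ENSMUSG00000000938, chr6:52208177-52217834) encodes a regulator of myeloid and stem cell growth. It was counted at 22.9, 21.1 and 21.5 CPM in Ctrl and at 29.9, 31.3 and 32.6 CPM in l-FA libraries. All 3 l-FA libraries lay above all 3 Ctrl libraries, and the log2 fold change was 0.52 (SE 0.061, 95% interval 0.37 to 0.67, edgeR adjusted p = 0.000672). Hoxa9 (ENSMUSG00000038227, chr6:52200080-52208069), which also drives leukemia together with Meis1 when overexpressed, was counted at 96.4, 99.5 and 97.1 CPM in Ctrl and at 115, 117 and 119 CPM in l-FA libraries. The groups did not overlap, and the log2 fold change was 0.26 (SE 0.031, 95% interval 0.19 to 0.33, edgeR adjusted p = 0.00068). Hoxa7 (ENSMUSG00000038236, chr6:52191471-52198834), a gene often co-expressed with Hoxa9 in MLL-rearranged leukemia, was counted at 41.6, 43.0 and 47.6 CPM in Ctrl and at 52.4, 48.4 and 50.3 CPM in l-FA libraries. The groups did not overlap, although Ctrl library 3 lay within 1 CPM of l-FA library 2. The log2 fold change was 0.19 (SE 0.064, 95% interval 0.04 to 0.35, edgeR adjusted p = 0.0438). This call was lost when Ctrl library 1 (adjusted p = 0.119), Ctrl library 2 (adjusted p = 0.115), l-FA library 1 (adjusted p = 0.103) or l-FA library 3 (adjusted p = 0.0782) was left out of the edgeR fit.

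Hoxa5 and Hoxa3, further towards the 3′ end, did not pass the test. Hoxa5 (ENSMUSG00000038253, chr6:52178734-52181567), a regulator of the balance between erythroid and myeloid output, was counted at 7.24, 7.40 and 8.58 CPM in Ctrl and at 8.95, 9.52 and 9.56 CPM in l-FA libraries. Its groups did not overlap, with a log2 fold change of 0.27 (SE 0.097, 95% interval 0.04 to 0.50, edgeR adjusted p = 0.0553). Without Ctrl library 3 the value was 0.35 and passed (edgeR adjusted p = 0.0271). Hoxa3 (ENSMUSG00000079560, chr6:52146042-52190316), known for thymus and parathyroid development and for hemogenic endothelium, was counted at 4.85, 5.90 and 4.52 CPM in Ctrl and at 4.05, 4.24 and 4.31 CPM in l-FA libraries. The highest l-FA value was under the lowest Ctrl value, the log2 fold change was -0.28 (SE 0.13, 95% interval -0.59 to 0.04), and the edgeR adjusted p was 0.124.

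**Figure D2:**
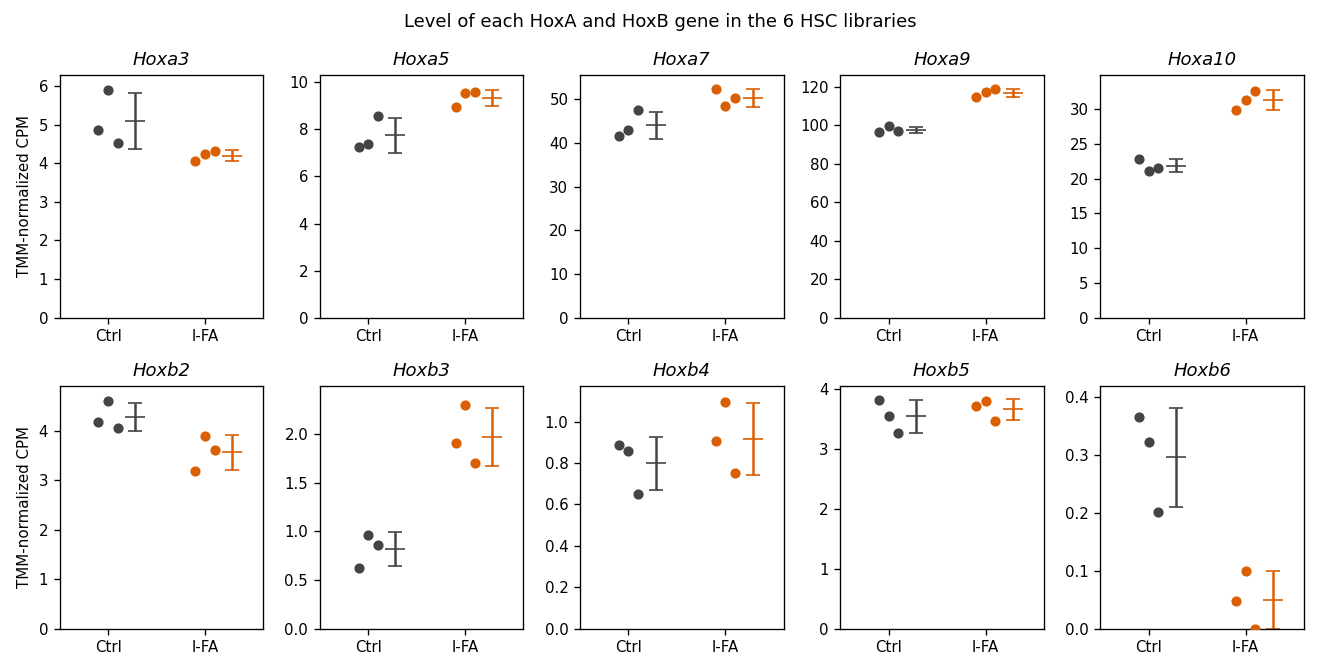
TMM-scaled CPM of each of the 10 members, with a point for each of 3 Ctrl and 3 l-FA libraries and a bar at the mean ± SD (axes start at 0). Hoxa5, Hoxa7, Hoxa9, Hoxa10 and Hoxb3 have all l-FA points above all Ctrl points, Hoxa3, Hoxb2 and Hoxb6 have them below, and Hoxb4 and Hoxb5 overlap.

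The HoxB members spanned 61.5 kb of chromosome 11, from 96183302 to 96244838, and are described from the 3′ end towards the 5′ end. Hoxb2 (ENSMUSG00000075588, chr11:96241351-96244838), best known from the developing hindbrain, was counted at 4.17, 4.61 and 4.07 CPM in Ctrl and at 3.19, 3.89 and 3.61 CPM in l-FA libraries. Here too the highest l-FA value was under the lowest Ctrl value, with a log2 fold change of -0.27 (SE 0.12, 95% interval -0.56 to 0.03) that did not pass (edgeR adjusted p = 0.120). Hoxb3 (ENSMUSG00000048763, chr11:96214152-96238756), a neighbour of Hoxb4 in the cluster, was counted at 0.625, 0.965 and 0.853 CPM in Ctrl and at 1.90, 2.29 and 1.70 CPM in l-FA libraries. These values rested on 12, 18 and 17 counts in Ctrl and 40, 46 and 34 counts in l-FA libraries. The lowest l-FA library lay above the highest Ctrl library, with a log2 fold change of 1.27 (SE 0.22, 95% interval 0.74 to 1.80, edgeR adjusted p = 0.00339). As a fold this was 2.41, with a 95% interval of 1.67 to 3.47. It was the largest change among the 9 tested members and came from the tested member with the lowest FPKM.

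Hoxb4 (ENSMUSG00000038692, chr11:96209093-96212464), whose forced expression expands HSCs, was counted at 0.886, 0.858 and 0.653 CPM in Ctrl and at 0.905, 1.10 and 0.751 CPM in l-FA libraries. The groups overlapped, and at 13 to 22 counts per library the 95% interval of the log2 difference ran from -0.36 to 0.76 (log2 fold change 0.20, SE 0.24, edgeR adjusted p = 0.567). Hoxb5 (ENSMUSG00000038700, chr11:96194162-96196947), used as a reporter of long-term HSCs, was counted at 3.80, 3.54 and 3.26 CPM in Ctrl and at 3.71, 3.79 and 3.45 CPM in l-FA libraries. The groups overlapped, with a log2 fold change of 0.05 (SE 0.12, 95% interval -0.23 to 0.32, edgeR adjusted p = 0.785). Without Ctrl library 3 the Hoxb5 value was -0.013 (edgeR adjusted p = 0.951).

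Hoxb6 (ENSMUSG00000000690, chr11:96183302-96192395), a gene of hematopoietic progenitors, held 7, 6 and 4 counts in Ctrl and 1, 2 and 0 counts in l-FA libraries and did not pass the low-count filter. The sums of 17 and 3 counts gave a level 5.99-fold lower in l-FA, with an exact counting interval of 1.73 to 31.9 that covers counting error only. When every gene with a count was kept, Hoxb6 passed as lower (log2 fold change -2.44, SE 0.68, edgeR adjusted p = 0.0349).

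**Figure D3:**
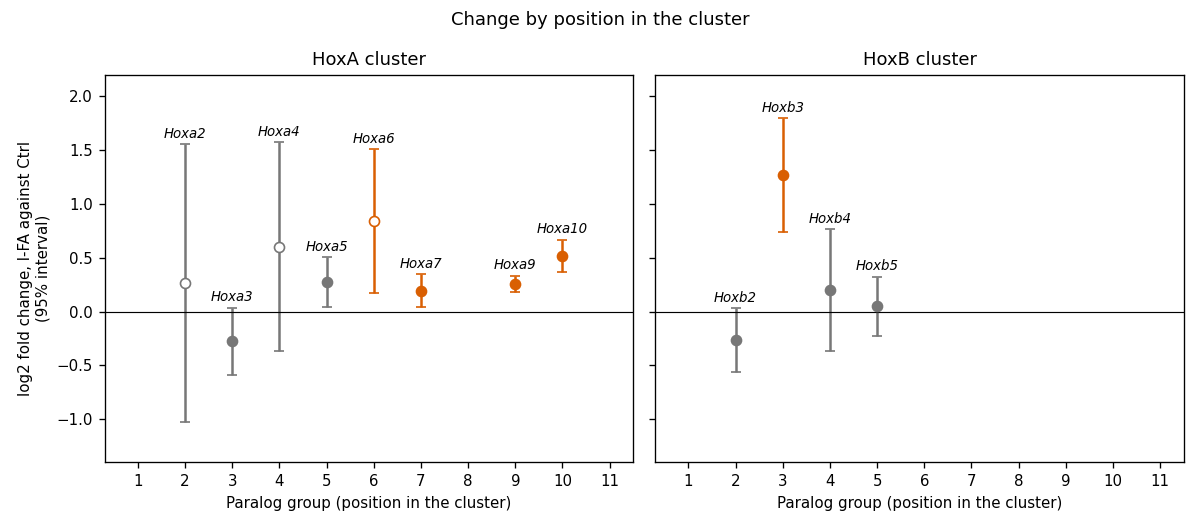
Log2 fold change of l-FA against Ctrl with its 95% interval, plotted against paralog group for each cluster. Filled points are members, open points are the other tested Hox genes (Hoxa2, Hoxa4, Hoxa6), and orange marks an edgeR adjusted p under 0.05. The HoxA values at groups 6, 7, 9 and 10 and the HoxB value at group 3 are orange.

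Among the 9 tested members, 7 had groups that did not overlap, 5 with all l-FA libraries higher and 2 with all l-FA libraries lower. Groups that did not overlap were found for 60.3% of all genes tested, 30.4% higher and 29.9% lower. The libraries of a group differed little beyond counting error for these genes. The median within-group chi-square (2 degrees of freedom) over 20 member and group pairs was 1.41, against 1.39 from counting error alone, and 1 of the 20 lay above 5.99, for Hoxa7 in Ctrl (8.86).

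Ratios of counts within a library do not depend on how libraries are scaled, so the other 8 tested members were also set against Hoxa9. By TMM-scaled CPM, Hoxa9 itself was higher in l-FA libraries (log2 fold change 0.26). A member whose CPM did not change would therefore have a negative log2 difference in this ratio. Hoxa10 had 23.7, 21.2 and 22.1 counts per 100 Hoxa9 counts in Ctrl and 26.1, 26.7 and 27.5 in l-FA libraries, a log2 difference of 0.26 with all l-FA libraries higher. Hoxa3 went the other way, from 5.03, 5.93 and 4.65 per 100 in Ctrl to 3.53, 3.61 and 3.62 in l-FA libraries (log2 difference -0.53), as did Hoxb2, from 4.33, 4.63 and 4.19 to 2.78, 3.31 and 3.03 (log2 difference -0.53). Hoxa5 (log2 difference 0.02) and Hoxa7 (log2 difference -0.07) overlapped between groups in this ratio, as did Hoxb4 (log2 difference -0.06). Hoxb5 had 3.95, 3.56 and 3.36 counts per 100 Hoxa9 counts in Ctrl and 3.24, 3.23 and 2.91 in l-FA libraries. All l-FA libraries were lower in this ratio (log2 difference -0.21), although the CPM values of Hoxb5 overlapped (log2 fold change 0.05). Hoxb3 had 0.649, 0.970 and 0.879 per 100 in Ctrl and 1.66, 1.95 and 1.43 in l-FA libraries, all higher (log2 difference 1.02). Within HoxB, Hoxb3 had 15, 20.9 and 21 counts per 100 Hoxb2 counts in Ctrl and 59.7, 59.0 and 47.2 in l-FA libraries (log2 difference 1.55). Over 9 such ratios, the two-sided exact permutation p was 0.1 for the ratios whose groups did not overlap, which is the smallest that 3 libraries against 3 allow, or 0.15 after Benjamini-Hochberg adjustment.

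Several members overlap other listed genes, and since the kit keeps no strand, their reads cannot be told apart from those of a partner on the opposite strand. Exons and strands were taken by gene identifier from the GENCODE M21 annotation (GRCm38). For several members these exon lengths differ from those implied by the deposited FPKM. For Hoxb3 they are 4251 against 6014 bases and for Hoxb2 3488 against 4762 bases. The shares below hold for the M21 exons only. No member shared an exon base with another member. Hoxb3 shared 2250 of 4251 exon bases (52.9%) with the antisense gene Hoxb3os, and Hoxb2 shared 953 of 3488 (27.3%) with the same gene. Hoxb3os held 20, 25 and 22 counts in Ctrl and 33, 8 and 19 in l-FA libraries (log2 fold change -0.24, SE 0.44, edgeR adjusted p = 0.677). Its listed counts overlapped between groups, and those of Hoxb3 did not. How reads in the shared bases were assigned is not stated, so the part of Hoxb3os reads in the Hoxb3 counts was not tested. Hoxa3, whose listed span lies inside Gm28308, partly overlaps Hoxaas2 and Hoxaas3, and covers Gm15050, 5730596B20Rik, Hoxa4, Hoxa5 and Hoxa6, shared 1277 of 6014 exon bases (21.2%) with them. Hoxa7 shared 586 of 2876 exon bases (20.4%) with Hoxaas3. Hoxb5 shared 100 of 2786 (3.59%) with Hoxb5os, whose span also overlaps Hoxb6 without a shared exon base. Hoxa5 shared none with the genes it overlaps, and Hoxa10 and Hoxb4 overlapped no listed gene.

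The antisense genes of HoxA went in both directions. Hoxaas2 held 14, 13 and 26 counts in Ctrl and 0 in each l-FA library, at least 18.7-fold lower when set against a limit of 3 counts over the group (edgeR adjusted p = 0.00297), and shared 503 exon bases with Hoxa3. Hoxaas3 held 14, 16 and 16 counts in Ctrl and 41, 29 and 21 in l-FA libraries (log2 fold change 0.90, SE 0.27, edgeR adjusted p = 0.0314), and this call was lost when any of the 3 Ctrl libraries, l-FA library 1 or l-FA library 2 was left out, with adjusted p between 0.0655 and 0.0907. Hoxb5os held 13, 18 and 26 counts in Ctrl and 17, 8 and 14 in l-FA libraries (log2 fold change -0.62, SE 0.35, edgeR adjusted p = 0.190). The gene 5730596B20Rik held 8, 5 and 6 counts in Ctrl and 0 in each l-FA library, while Gm28308 held 1 to 6 counts and Gm15050 held 0 to 3 in any library.

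Hoxa9 shared 85 of 5580 exon bases (1.52%) with Mir196b, the gene of a microRNA known to target Hox transcripts. Its mature product is shown with the seed, bases 2 to 8, in capitals, as listed by RefSeq.
miR-196b-5p: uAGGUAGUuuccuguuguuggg
Mir196b held 5, 8 and 1 counts in Ctrl and 1 count in each l-FA library, too few for a test, and reads of a library made from longer RNA do not measure the mature product.

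The remaining Hox genes held few counts, and none reached a mean of 100. Hoxa6, between Hoxa5 and Hoxa7, held 18, 13 and 17 counts in Ctrl and 31, 21 and 39 in l-FA libraries (log2 fold change 0.84, SE 0.28, 95% interval 0.17 to 1.51, edgeR adjusted p = 0.0433). It lost the call without any of the 3 Ctrl libraries, l-FA library 1 or l-FA library 3, with adjusted p between 0.0717 and 0.120. Hoxa4 had a log2 fold change of 0.60 (SE 0.40, edgeR adjusted p = 0.260) and Hoxa2 one of 0.26 (SE 0.54, edgeR adjusted p = 0.715). Hoxb7 held 3, 6 and 4 counts in Ctrl and 0 in each l-FA library (at least 4.58-fold lower against 3 counts over the group) and did not pass the low-count filter. Beyond the clusters, 4 of 9 tested flanking genes passed, 1 higher and 3 lower, beside 25.5% higher and 25.0% lower among all genes tested, with a median log2 fold change of 0.04 beside HoxA and -0.10 beside HoxB. Snx11, near HoxB, had a log2 fold change of -0.31 (SE 0.049, edgeR adjusted p = 0.00235), Hibadh, near HoxA, -0.13 (SE 0.030, edgeR adjusted p = 0.0114), Cbx1 -0.13 (SE 0.029, edgeR adjusted p = 0.00975) and Tax1bp1 0.06 (SE 0.020, edgeR adjusted p = 0.0499). The Tax1bp1 call, the 1 in the higher direction, was lost without any library but l-FA library 1 (adjusted p between 0.0681 and 0.143), with RLE scaling (0.0709), without the low-count filter (0.126) and with the replicate block (0.124). Under library-total scaling the log2 fold change of Hibadh was -0.051 (edgeR adjusted p = 0.212) and that of Cbx1 was -0.052 (edgeR adjusted p = 0.182), and Hibadh also missed without l-FA library 3 (adjusted p = 0.0562).

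Of 8 TALE partner genes listed, 6 were tested, and 1 was higher and 1 lower (median log2 fold change 0.14), beside 50.5% of all genes in either direction. Meis1, the partner of Hoxa9 in leukemia and in HSCs, was counted at 278, 269 and 246 CPM in Ctrl and at 280, 281 and 256 CPM in l-FA libraries. Its groups overlapped, and the log2 fold change was 0.04 (SE 0.057, 95% interval -0.09 to 0.18, edgeR adjusted p = 0.561). Pbx4, a PBX family gene, was counted at 22.3, 22.5 and 24.0 CPM in Ctrl and at 31.5, 33.9 and 33.6 CPM in l-FA libraries. It was higher in all 3 l-FA libraries (log2 fold change 0.53, SE 0.059, edgeR adjusted p = 0.000549). Pbx3, another partner of Hoxa9, was counted at 3.75, 3.75 and 3.46 CPM in Ctrl and at 3.10, 2.49 and 2.0 CPM in l-FA libraries, with a log2 fold change of -0.53 (SE 0.18, edgeR adjusted p = 0.0443), a call that was lost without any library but l-FA library 1, with adjusted p between 0.0751 and 0.112. Pbx2 (0.68, SE 0.32, edgeR adjusted p = 0.126), Meis3 (0.19, SE 0.17, edgeR adjusted p = 0.397) and Pknox1 (0.10, SE 0.14, edgeR adjusted p = 0.602) had log2 fold changes that did not pass. Pbx2 passed without Ctrl library 2, its highest Ctrl library (log2 fold change 1.13, edgeR adjusted p = 0.00635). With DESeq2, Pbx2 passed (log2 fold change 0.68, adjusted p = 0.0480) and Pbx3 did not (adjusted p = 0.0515). The TALE calls with DESeq2 were therefore 2 higher and 0 lower. Meis2 and Pknox2 held too few counts for a test.

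Of 17 listed genes of MLL complexes and related activators, 5 were higher and 4 lower (52.9% called), with a median log2 fold change of -0.07. Kmt2a, which encodes the MLL histone methyltransferase, rose from 54.4 ± 0.393 CPM to 70.2 ± 4.95 CPM (log2 fold change 0.37, SE 0.057, edgeR adjusted p = 0.00201). Mllt3, a chromatin reader and partner of MLL in leukemia fusions, rose from 21.4 ± 0.985 CPM to 29.9 ± 0.643 CPM (0.48, SE 0.058, edgeR adjusted p = 0.000702), and Ash1l rose (0.34, SE 0.055, edgeR adjusted p = 0.00245). Psip1, whose product LEDGF tethers MLL to chromatin, fell from 194 ± 0.882 CPM to 139 ± 2.40 CPM (-0.49, SE 0.026, edgeR adjusted p = 3.36e-05). The complex subunits Dpy30 (-0.51, SE 0.10, edgeR adjusted p = 0.00686) and Ash2l (-0.43, SE 0.070, edgeR adjusted p = 0.00265) fell as well. Kat7, with the highest mean count of the list, had a log2 fold change of 0.02 (edgeR adjusted p = 0.779). The regulator genes Cdx1, Cdx2 and Cdx4 were looked for as well but were not among the deposited genes, so they could not be tested.

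Of 23 Polycomb genes, 4 were higher and 6 lower (43.5% called), with a median log2 fold change of -0.09. Bmi1, a subunit of Polycomb repressive complex PRC1 needed for HSC self-renewal, fell from 39.9 ± 2.31 CPM to 27.3 ± 1.56 CPM (-0.55, SE 0.068, edgeR adjusted p = 0.000792). Ezh1, a histone methyltransferase of the PRC2 complex, rose from 78.3 ± 3.88 CPM to 112 ± 1.58 CPM (0.52, SE 0.043, edgeR adjusted p = 0.000171). The PRC1 genes Rnf2 (0.44, SE 0.049, edgeR adjusted p = 0.000514), Cbx8 (0.43, SE 0.098, edgeR adjusted p = 0.0102) and Phc1 (0.33, SE 0.063, edgeR adjusted p = 0.00502) rose, and Asxl1, a partner of the deubiquitinase Bap1, fell (-0.33, SE 0.048, edgeR adjusted p = 0.00155). Bap1 itself, with the highest mean count of the list, had a log2 fold change of -0.01 (edgeR adjusted p = 0.831), and its sign changed under upper-quartile and library-total scaling. The MLL and Polycomb lists each held genes called in both directions, with 52.9% and 43.5% called beside 50.5% of all genes tested.

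**Figure D4:**
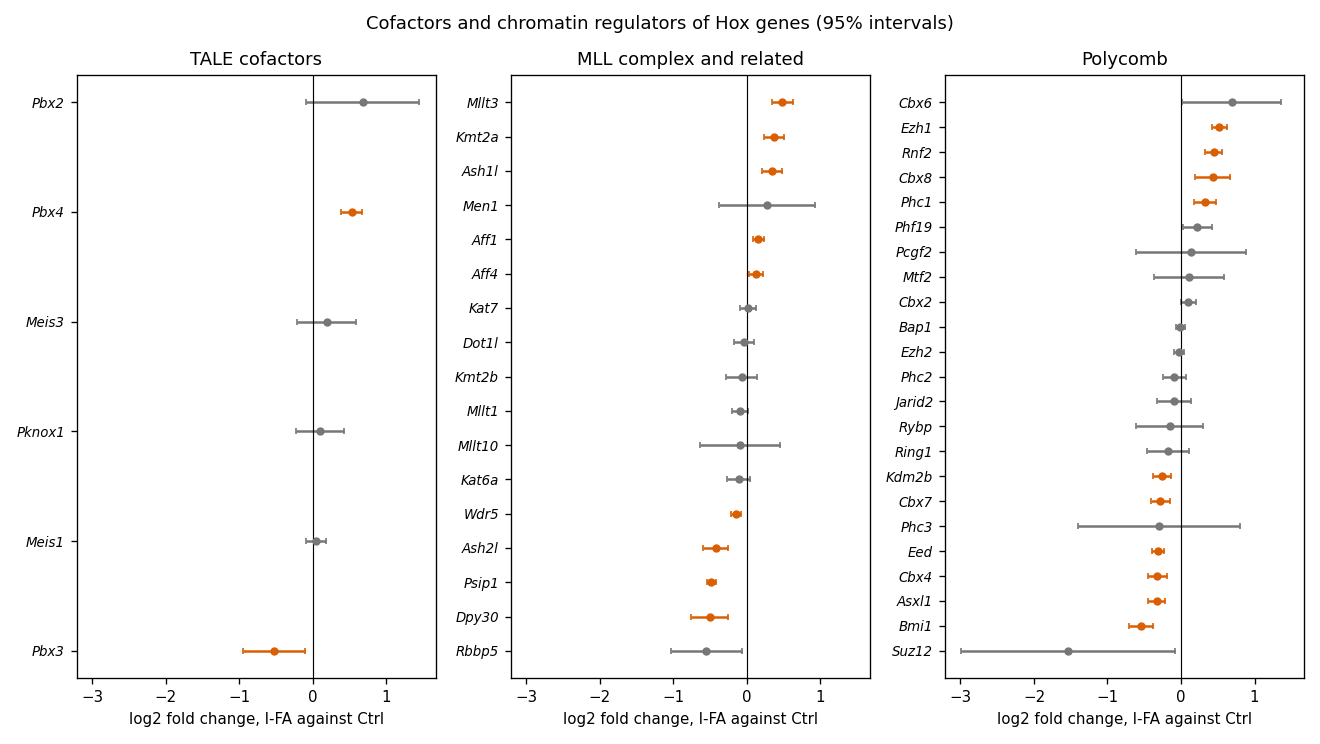
Log2 fold change of l-FA against Ctrl with its 95% interval for the 6 tested TALE genes, 17 MLL-related genes and 23 Polycomb genes, with an edgeR adjusted p under 0.05 in orange. Each list has orange points on both sides of 0.

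Among 12 genes known to be bound by HOXA9 and MEIS1 in blood cells, 2 were higher and 2 lower, beside 50.5% of all genes tested in either direction, with a median log2 fold change of 0.0032. Erg, a transcription factor of HSCs, rose from 12.9 ± 0.837 CPM to 23.1 ± 1.22 CPM (0.85, SE 0.078, edgeR adjusted p = 0.000259), and the cytokine receptor gene Flt3 rose (0.64, SE 0.018, edgeR adjusted p = 3.95e-06). Myb, a transcription factor of proliferating progenitors, fell from 593 ± 8.30 CPM to 462 ± 7.22 CPM (-0.36, SE 0.021, edgeR adjusted p = 4.97e-05). The cell cycle kinase gene Cdk6 had a log2 fold change of -0.08 (SE 0.022, edgeR adjusted p = 0.0205), which was -0.0016 and not called under library-total scaling (adjusted p = 0.956). The Cdk6 call was also lost with upper-quartile scaling (0.0657), with the replicate block (0.0506) and without Ctrl library 1, l-FA library 1, l-FA library 2 or l-FA library 3 (edgeR adjusted p between 0.0561 and 0.117).

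The members were recomputed under 13 other settings. Hoxa9 (log2 fold change 0.25 to 0.34), Hoxa10 (0.49 to 0.60) and Hoxb3 (1.11 to 1.40) passed the test in each of them. Hoxa3 (-0.36 to -0.16), Hoxb2 (-0.32 to -0.18) and Hoxb4 (0.07 to 0.34) passed in none. Of the 9 tested members, Hoxa5 and Hoxa7 had a call that depended on the setting.

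**Figure D5:**
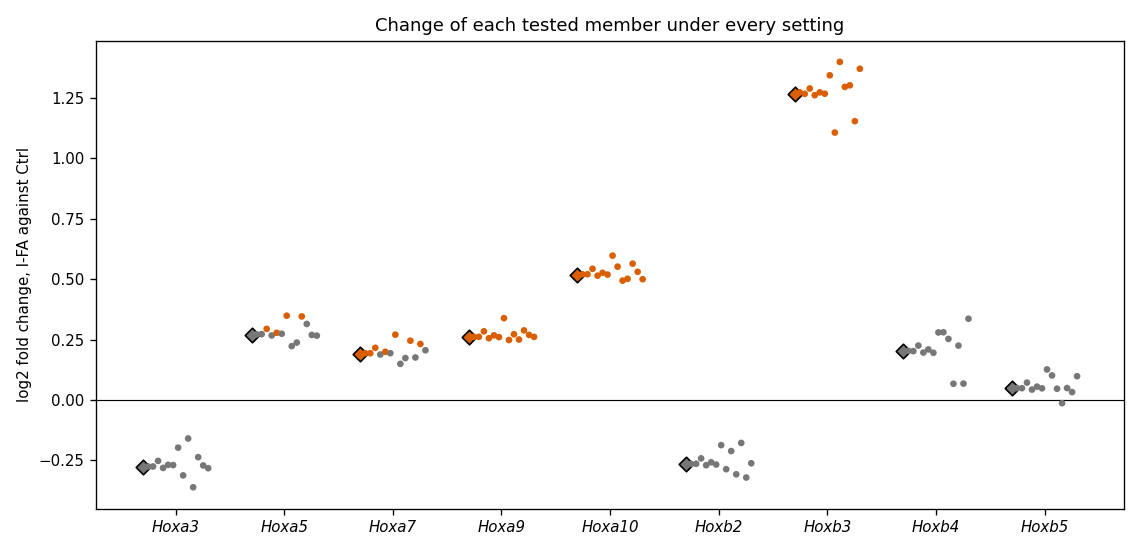
Log2 fold change of each tested member under the reported setting (diamond) and under 13 alternatives (points), with an adjusted p under 0.05 in orange. Hoxa9, Hoxa10 and Hoxb3 are orange throughout, Hoxa5 and Hoxa7 are mixed, and Hoxb5 lies around 0.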

How the data were processed

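RNA-seq of sorted HSCs gave 6 libraries, 3 per group. For each library the authors deposited gene counts, as whole numbers without scaling, and FPKM values. The submitters' processing notes list HISAT2, SAMtools 1.3.1, StringTie, edgeR and build GRCm39, without roles. The study's methods name DESeq2. A strand setting is not given in the sources used here, and the amplification kit keeps no strand. Groups and replicate numbers came from the labels.

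The test of the deposited counts was edgeR's quasi-likelihood test (version 4.0.16, under R 4.3.3, with TMM scaling, filterByExpr, glmQLFit, glmQLFTest), with Benjamini-Hochberg adjustment over the 16520 of 27198 genes kept. A call is an adjusted p under 0.05. Library totals were 19287735 to 20380610 counts, and intervals for sums of counts cover counting error only. FPKM values were used for levels between genes, with no test. The same steps were tested on simulated data. Alternatives were DESeq2 1.42.0, RLE, upper-quartile and library-total scaling, a replicate block, dropping the low-count filter, requiring 10 or more counts per library, and leaving out each library in turn.

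The members, gene lists and tests were chosen with earlier results of these data known. Named genes are all members, the tested TALE genes, genes whose span overlaps a member, Hox genes with a mean of at least 100 counts, and of each other list at most 6 called genes with the largest changes among those with a mean of at least 100 counts, plus the gene with the highest mean. The other Hox genes named had fewer counts and were chosen after their values were seen. Some genes are not reported here. Marker lists are given by their sums and counts of calls, and Kit, Ly6a, Cd34 and Flt3 as genes of the sort. Promoter and miRNA sequences came from RefSeq (GRCm38.p6), whose coordinates were not mixed with those of the table.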

Additional observations from a re-analysis of the deposited data

How the results depend on the processing

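With 4 members called as reported, the count was 4 with DESeq2, RLE scaling or no low-count filter, 5 with upper-quartile scaling, a minimum of 10 counts or library-total scaling, and 3 to 5 when single libraries were left out. Library-total scaling was chosen after seeing the data. It moved the median log2 fold change of all genes from 0.0035 to 0.08 and the share of higher genes among those called from 50.4% to 61.6%. Without the filter, 2 members passed the 2-fold limit (Hoxb3 and Hoxb6). Hoxa5 passed with upper-quartile scaling (0.29), a minimum of 10 counts (0.28) and library-total scaling (0.35), and ran from 0.22 to 0.35 with a library left out. Hoxa7 missed without the filter (0.19) and ran from 0.15 to 0.25. Hoxb5 ran from -0.013, without Ctrl library 3, to 0.10. The TALE count fell from 2 to 1 with upper-quartile scaling, no filter or library-total scaling and was 1 to 2 with a library left out (1 without Ctrl library 1, Ctrl library 3, l-FA library 2 or l-FA library 3). The count of other Hox and flanking genes fell from 5 to 3 without Ctrl library 2 or Ctrl library 3 and to 2 without l-FA library 3. Counts for the other lists were within 1.5 times the reported ones.

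Signs of small differences also turned, with a library left out, in Hoxa2 (-0.18 to 0.68), Hoxb3os (-0.76 to 0.14), Meis1 (-0.012 to 0.099), Pknox1 (-0.027 to 0.21), Kat7 (-0.022 to 0.070) and Bap1 (-0.025 to 0.014). Bap1 was 0.017 with upper-quartile and 0.071 with library-total scaling. Pbx3 also missed with DESeq2, upper-quartile and library-total scaling, no filter and the replicate block, Hoxa6 with DESeq2 and no filter, and Hoxaas3 with the block. Where no value above shows it, the cause was not tested.

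Replicate numbers are shared between groups, but no source pairs them. Deviations of same-numbered libraries correlated at 0.0187, -0.0132 and -0.05, beside -0.0740 to 0.0834 for Ctrl and l-FA libraries of different number. With 3 libraries per group, these values cannot show whether libraries were paired or handled together. With the replicate block, 3 members were called (Hoxa7 0.19, adjusted p = 0.0742 by edgeR) and the counts were 1 TALE, 9 MLL-related, 10 Polycomb, 3 bound and 5 other Hox and flanking genes. At 0 to 7 counts per library, Hoxb6 could not be measured more closely.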

Other observations

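For the member of highest mean FPKM in each cluster, the nearest genes across the 6 libraries were listed. They came from 11428 tested genes with a mean of at least 100 counts. Likeness was the Euclidean distance between log2 CPM values centred on their mean over the libraries. Nearest to Hoxa9 were Tmem30a (distance 0.0199), Laptm5 (0.0248) and Jak1 (0.0267). Nearest to Hoxb2 were Gm3226 (0.0562), Optn (0.0670) and Spata2 (0.0820).

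Outside HoxA and HoxB, 4 HoxC and 3 HoxD genes were listed, none with more than 6 counts in a library. Hoxc10 held 0 counts in each Ctrl library and 2, 3 and 6 counts in l-FA libraries, and Hoxb9 held 4, 3 and 0 counts in Ctrl and 0 in each l-FA library.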
